A study of Mus musculus with 2 samples.

Results

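Tumour tissue of Math1-Cre;SmoM2fl/fl mice held a group of macrophage barcodes that carried C1q transcripts. They had few or no UMIs of chosen genes of resting microglia and of Mrc1-type border macrophages. A barcode was a member when C1qa, C1qb and C1qc summed to at least 5 raw UMIs (unique molecular identifiers, each a counted RNA molecule). Mrc1, Pf4, F13a1 and Cd163 had to sum to at most 2 UMIs, and P2ry12, Tmem119, Sall1 and Siglech likewise to at most 2. Barcodes with fewer than 500 detected genes or over 10% mitochondrial UMIs were left out. The rule found 133 members among 8461 kept barcodes of the standard library and 141 among 10366 of the FLASH library, 274 of 18827 in all.

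Both libraries came from medulloblastoma in which Cre, driven by the Math1 (Atoh1) promoter in cerebellar granule neuron precursors, switched on SmoM2, an activated Smoothened. Cells were freed with collagenase and DNase after perfusion. The standard group had received proton irradiation at the usual dose rate and the FLASH group at an ultra-high dose rate. There was 1 library per group and no unirradiated library was used. The sample labels gave 5 Gy and the series design 10 Gy, and the files did not settle which applied. The time from irradiation to collection and the number of mice per library were not given in the sources used here. With 1 library per group no difference could be tested, and every interval below is a 95% interval for counting error, which leaves out the spread between animals and between cells.

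C1q is the recognition part of the classical complement pathway and is made in the brain mainly by microglia and macrophages. Resting microglia carry P2ry12, Tmem119, Sall1 and Siglech, and macrophages of the meninges and vessel walls carry Mrc1, Pf4, F13a1 and Cd163. Microglia near damage or tumour lose their resting genes and can take up a program with Spp1, Gpnmb, Apoe and lipid-handling genes, and macrophages that came from blood monocytes often lack the resting genes from the start.

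The members made up 1.57% of kept barcodes in the standard library (exact Clopper-Pearson interval 1.32 to 1.86) and 1.36% in the FLASH library (1.15 to 1.60). The log2 ratio of these shares was -0.21, with an interval from -0.56 to 0.14 that includes 0. Among all barcodes with at least 5 C1q UMIs, 302 in the standard and 304 in the FLASH library, members were 44.0% and 46.4%. The class with at least 3 UMIs of the Mrc1 set alone held 64 and 56 barcodes, the class with the homeostatic set alone 83 and 65, and the class with both sets 22 and 42.

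**Figure D1:**
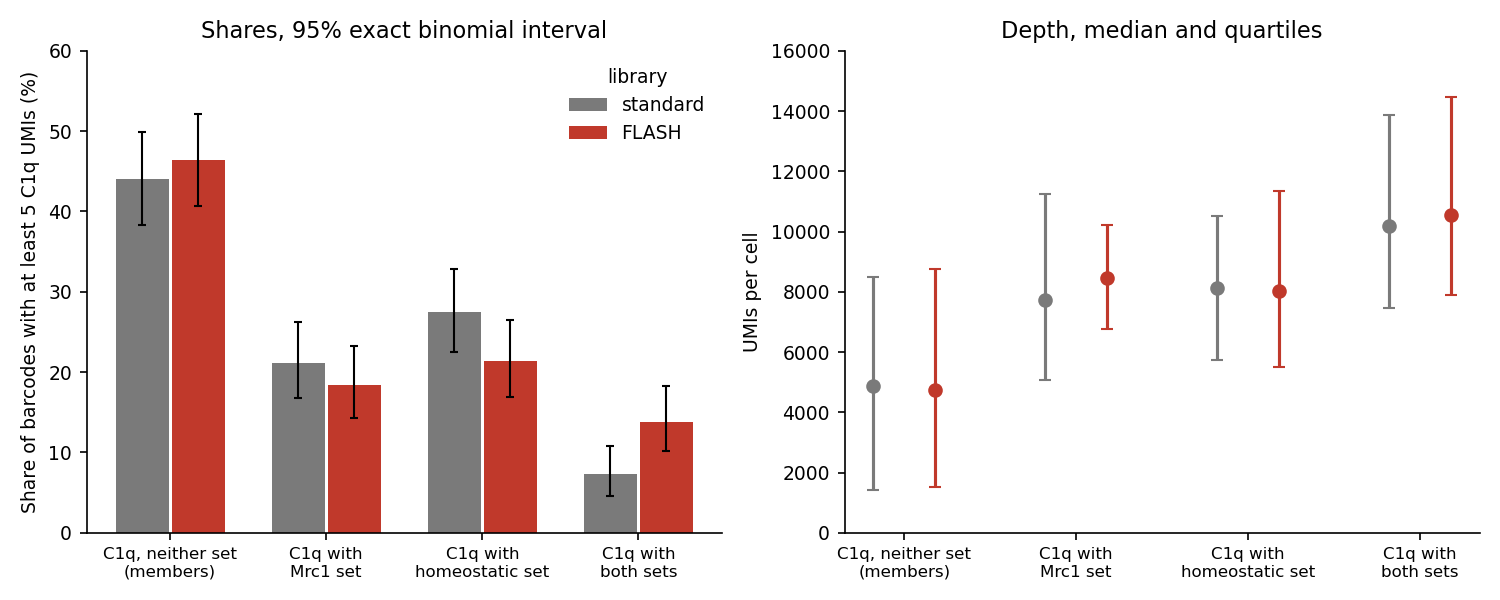
The left panel gives the share of each class among barcodes with at least 5 C1q UMIs (%), with exact binomial intervals, and the right panel UMIs per cell (median, with bars to the quartiles), in grey for the standard and red for the FLASH library. Members were 44.0% and 46.4% of C1q barcodes and had the lowest median depth of the 4 classes, 4883 and 4728 UMIs.

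Depth differed between members and the other classes, and an absence of UMIs is easier to meet in a shallow cell. The median member had 4883 UMIs in the standard and 4728 in the FLASH library. The median of the Mrc1 class was 7719 and 8468 UMIs, and that of the homeostatic class 8141 and 8021. In each library 43 members had under 2000 UMIs. C1q itself, which chose the cells, had a median of 29 UMIs per member in the standard library (5 to 357) and 33 in the FLASH library (5 to 413). The excluded genes were wholly absent from fewer cells: 49 members of the standard and 56 of the FLASH library had 0 UMIs of all 8. At the edge of the C1q limit, 11 members of the standard library had exactly 5 UMIs and 9 barcodes just outside had 4, with 3 and 8 in the FLASH library. At the Mrc1 limit 16 and 20 members had a sum of 2, against 9 and 14 barcodes outside with 3. At the homeostatic limit these were 26 and 27 inside against 15 and 17 outside.

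The macrophage label held for most members. All 17 pan-macrophage genes that the rule did not use were detected in both libraries, and together they reached 20064 CPM (UMIs of the gene scaled to a total of 1e+06 UMIs in the group) in the standard and 19242 CPM in the FLASH library. In the Mrc1 class the same sum was 21516 and 25838 CPM, and in granule lineage barcodes 59.9 and 69.5 CPM. Granule lineage barcodes were those with under 5 C1q UMIs and at least 10 UMIs of the granule neuron lineage list. Barcodes richer in C1q were thus left out of them beforehand. With each cell thinned to 2000 UMIs, which leaves 90 and 98 members, Tyrobp, the adaptor of Trem2 and other myeloid receptors, was found in 84.4% and 89.8% of members and in 0.7% and 0.8% of granule lineage barcodes. Without thinning it was found in 122 of 133 and 134 of 141 members. Free C1q was present too: 6.09% and 5.92% of granule lineage barcodes had at least 1 C1q UMI, at median depths of 6573 and 5992 UMIs. These shares leave out barcodes with 5 or more C1q UMIs by definition.

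A minority of members did not look like single macrophages. Members with 10 or more UMIs of the granule neuron lineage list (a limit chosen after seeing the data) numbered 26 of the standard (19.5%) and 28 of the FLASH members (19.9%). They held 86.1% and 85.1% of the members' granule lineage UMIs, and their median depths of 8969 and 8785 UMIs compare with 2884 and 3217 in the other members. Their median C1q sum was 13.5 and 21 UMIs, against 33 and 36 in the other members. Cre, the transgene, stood at 316 and 182 CPM in members and at 21.0 and 10.2 CPM in the Mrc1 class. Of the members' Cre UMIs, 88.8% and 66.7% lay in these granule-rich cells. Fewer than 10 pan-macrophage UMIs were found in 17 and 11 members. One standard member held 4050 of the 4096 haemoglobin and Alas2 UMIs of that library's members. Of 6 fibroblast and mural genes the sum was 1.31 CPM in standard and 136 CPM in FLASH members, with 97.3% of the latter in 1 cell. Of 7 T and NK cell markers, 2 were detected in standard members (3.92 CPM in sum) and 5 in FLASH members (17.3 CPM), where 1 cell held 100% of the UMIs; Trac and Trbc2 were at 0 in both. Of 7 neutrophil markers 3 were detected in each library (31.3 and 13.6 CPM), with S100a9, Retnlg, Ly6g and Mmp9 at 0. Of 7 dendritic cell markers 2 were detected in standard and 3 in FLASH members (64.0 and 55.7 CPM), with Flt3, Xcr1, Clec9a and Ccr7 at 0 in both. The part of these other cell types' RNA in the results below was not tested beyond the values given without the granule-rich members.

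**Figure D2:**
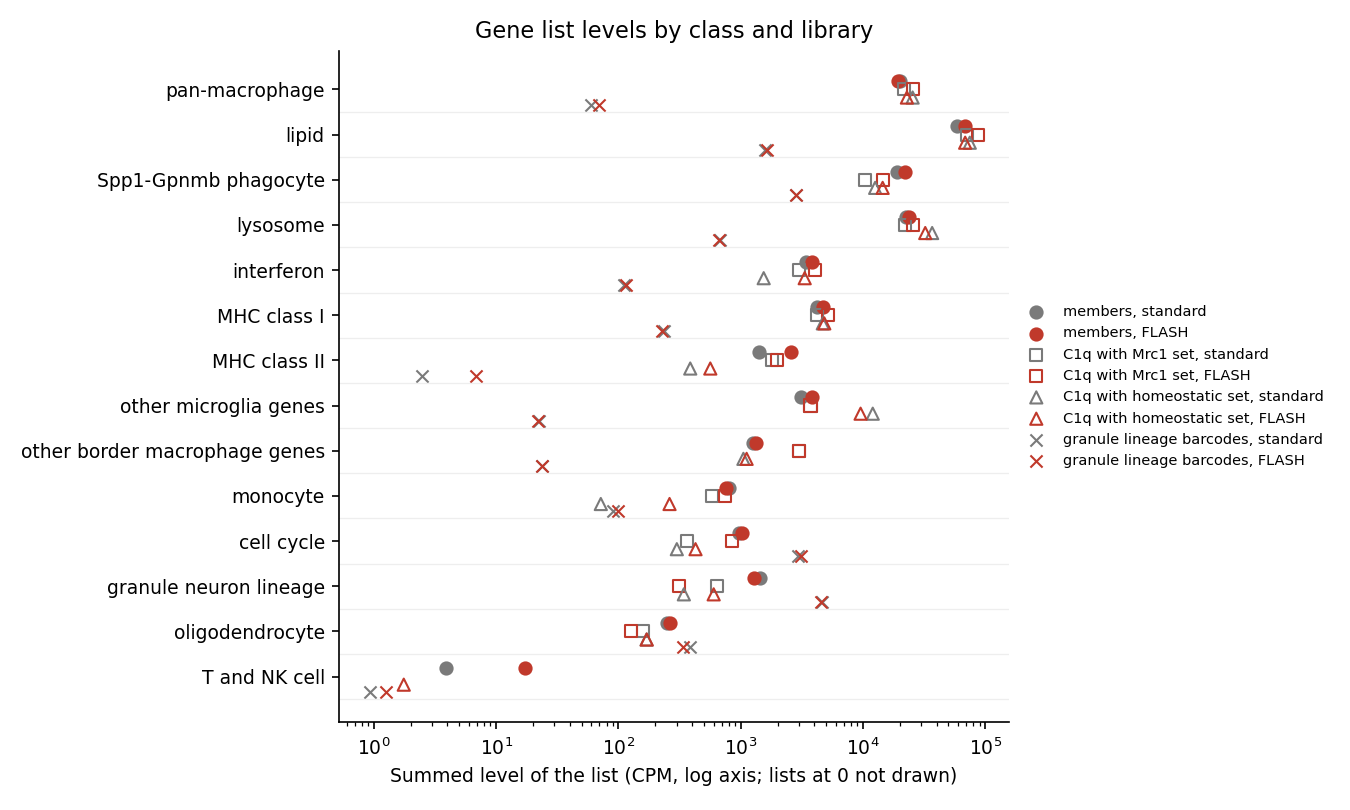
Summed level of each gene list in CPM (log axis) for members (filled circles), the Mrc1 class (squares), the homeostatic class (triangles) and granule lineage barcodes (crosses), grey for standard and red for FLASH. Members sit with the other C1q classes for pan-macrophage genes (20064 and 19242 CPM) and nearer to the Mrc1 class than to the homeostatic class for the other microglia genes (3113 and 3793 CPM).

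Microglia genes that the rule did not use were low but present. The 12 other microglia genes summed to 3113 CPM in standard members and 3793 CPM in FLASH members, and to 4078 and 4655 CPM without granule-rich members. The same sum was 12015 and 9556 CPM in the homeostatic class, and 3724 and 3723 CPM in the Mrc1 class. Of 11 such genes with enough UMIs to compare, 11 were at least 1.5 times lower in members than in the homeostatic class in both libraries, beside 8.34% of the 5158 genes compared. Since the classes were cut from these same cells, that difference is a description. Cx3cr1, the fractalkine receptor, was at 496 and 488 CPM, with UMIs in 83 and 87 members. Sparc, a secreted matrix protein of microglia, was at 329 and 540 CPM in members, at 2844 and 2194 CPM in the homeostatic class and at 11.5 and 167 CPM in the Mrc1 class. At 2000 UMIs Sparc was found in 28.9% and 34.7% of members, against 0% and 5.5% of the Mrc1 class and 1.2% and 1.2% of granule lineage barcodes. Before thinning it was found in 57 of 133 and 67 of 141 members.

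Border macrophage genes outside the rule were lower than in the Mrc1 class. Of 9 such genes compared, 7 were at least 1.5 times lower in members in both libraries, beside 3.64% of 4840 genes. Ms4a7, a membrane protein of border and infiltrating macrophages, was at 451 and 409 CPM in members, a log2 ratio to the Mrc1 class of -1.14 (-1.34 to -0.94) and -1.25 (-1.46 to -1.05). Maf, a transcription factor of resident macrophages, was at 208 and 188 CPM, with log2 ratios of -1.67 (-1.95 to -1.40) and -1.37 (-1.67 to -1.07). Lyve1, a hyaluronan receptor of perivascular macrophages, was at 0 UMIs in members of both libraries. The members thus held lower levels of both programs than the classes defined by them, in genes the rule did not name. Against the homeostatic class the border list was not lower in sum, at 1258 and 1333 CPM in members against 1052 and 1118 CPM. Of 7 genes compared, 1 was at least 1.5 times higher in both libraries, beside 9.60% of all genes, and 0 lower, beside 8.34%. Their medians were -0.48 and -0.15. At 2000 UMIs Ms4a7 was found in 44.4% and 35.7% of members and in 15.2% and 19.7% of the homeostatic class.

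Monocyte genes were found in a minority of members. Of the 12 genes of the list, 96 of 133 standard and 103 of 141 FLASH members had fewer than 3 UMIs in sum. A narrower set of 4, Ly6c2, Ccr2, Plac8 and Ms4a4c, genes of inflammatory monocytes, summed to at least 3 UMIs in 11 standard members (8.27%, interval 4.20 to 14.3) and 19 FLASH members (13.5%, 8.31 to 20.2). Sparc reached 3 UMIs in 26 and 38 members. Both conditions were met by 0 of the 11 standard and 1 of the 19 FLASH members past the monocyte limit. Over all members Sparc reached its limit in 26 of 133 and 38 of 141. With so few cells the overlap is a description and was not tested. These limits are on raw UMIs. Median depths were 6665 and 8122 UMIs past the monocyte limit and 2613 and 7863 UMIs past the Sparc limit. Across the whole monocyte list, members summed to 798 and 752 CPM. Barcodes with under 5 C1q UMIs and these monocyte genes, a class defined after seeing the data, summed to 6926 and 7923 CPM, and the homeostatic class to 71.8 and 262 CPM. Ccr2, the receptor for Ccl2, was at 65.3 CPM in standard and 130 CPM in FLASH members, with 40.0% and 37.1% of its UMIs in 1 cell. It had the highest FLASH over standard ratio of the 9 monocyte genes measured. Of these 9, only Ccr2 was at least 1.5 times higher, beside 5.85% of all genes. Lower were 3, beside 8.12%, and the median log2 ratio was -0.39.

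Lipid genes were abundant in members and near their level in the other C1q classes. The list of 27 genes for lipid uptake, transport and storage summed to 58242 CPM in standard and 68257 CPM in FLASH members. Without granule-rich members the sum was 73903 and 84957 CPM. It was 70620 and 87432 CPM in the Mrc1 class and 74674 and 68442 CPM in the homeostatic class. Apoe, the main lipid carrier protein of the brain, made up most of the members' sum, at 52470 CPM (interval 51958 to 52986) and 61671 CPM (61130 to 62215). In the Mrc1 class Apoe was at 64467 and 81094 CPM, and in the homeostatic class at 69057 and 62426 CPM. Apoe was found in 131 of 133 and 140 of 141 members. It was also found in 13.2% and 13.9% of granule lineage barcodes at 2000 UMIs, against 93.3% and 98.0% of members. Lpl, lipoprotein lipase, was at 235 and 286 CPM, above the Mrc1 class at 130 and 99.8 CPM and below the homeostatic class at 390 and 418 CPM. Fabp5, an intracellular fatty acid carrier, was at 2005 and 1931 CPM, close to the Mrc1 class at 1771 and 2099 CPM and above the homeostatic class at 598 and 1064 CPM. Fabp5 was also detected in 81.7% and 84.1% of granule lineage barcodes at 2000 UMIs, so its share of members with a UMI lies below that of the tumour lineage.

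Storage and export genes were closer between classes. Plin2, which coats lipid droplets, was at 376 and 414 CPM in members, and at 396 and 542 CPM in the Mrc1 class. Abca1, which exports cholesterol to lipoproteins, was at 358 and 383 CPM in members, 578 and 542 CPM in the Mrc1 class and 620 and 599 CPM in the homeostatic class. Npc2, a lysosomal cholesterol carrier, was at 1092 and 1166 CPM in members. Pparg, a lipid-sensing nuclear receptor, had 2 and 4 UMIs. Of 18 lipid genes compared with the Mrc1 class, 1 was at least 1.5 times higher in both libraries, beside 7.85% of all genes. Lower were 2, beside 3.64%. The medians were -0.28 and -0.29 beside 0.03 and 0.01 over all 4840 genes. Pltp, a phospholipid transfer protein, and Msr1, a scavenger receptor, were the 2 lower. Alox5, the first enzyme of leukotriene synthesis, had 0 UMIs in members of both libraries, while its partner Alox5ap was at 162 and 168 CPM.

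Spp1 was higher in members than in both classes, and its UMIs lay in few cells. Spp1 (osteopontin, a secreted glycoprotein; chromosome 5, 104435118 to 104441050, + strand, mm10 in GENCODE M21) was at 8447 CPM in standard and 11531 CPM in FLASH members. It was at 1875 and 4381 CPM in the Mrc1 class and at 2966 and 4694 CPM in the homeostatic class. The log2 ratio over the Mrc1 class was 2.17 (2.07 to 2.27) in the standard and 1.40 (1.33 to 1.46) in the FLASH library. The lowest values under the alternatives were 1.21 and 0.58, the latter just short of a fold of 1.5. The share of cells with Spp1 showed no such gap to the Mrc1 class: at 2000 UMIs it was found in 56.7% and 56.1% of members and in 54.2% and 67.3% of that class. It was found in 34.2% and 45.9% of the homeostatic class and in 0.8% and 1.1% of granule lineage barcodes. The top 14 of 133 standard members held 90.6% of the Spp1 UMIs, and the top 15 of 141 FLASH members 92.1%. A single standard member held 3284 Spp1 UMIs, 50.8% of that library's member total, and it also held 1271 Ctsl and 247 Gpnmb UMIs among 25442. The highest FLASH member held 2937 Spp1 UMIs, 31.6% of the total, with 17 Gpnmb UMIs among 17614. These cells had 2 and 1 granule lineage UMIs.

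Gpnmb (a membrane glycoprotein of phagocytes filled with lysosomes; chromosome 6, 49036546 to 49070929, + strand) was at 947 CPM in standard and 578 CPM in FLASH members. In the Mrc1 class it was at 304 and 589 CPM, so members were higher in the standard library and level in the FLASH library. At least 3 Gpnmb UMIs were found in 29 standard and 32 FLASH members, and at least 10 Spp1 UMIs in 33 and 36. Both were found in 20 and 21 members. Cells past these limits were deeper, with median depths of 7830 and 8935 UMIs for Gpnmb. Of 22 genes of the list, 6 were at least 1.5 times higher in members than in the Mrc1 class in both libraries, beside 7.85% of all genes. Lower were 2, beside 3.64% of all genes. The medians of 0.25 and 0.14 compare with 0.03 and 0.01 over all genes.

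The 6 were Spp1, Cd9, Cst7, Itgax, Lpl and Mmp12. Cd9, a tetraspanin of lipid-laden macrophages, was at 842 and 996 CPM in members and 377 and 406 CPM in the Mrc1 class. Against the homeostatic class Cd9 was lower in members under every alternative. Its log2 ratio there ran from -0.96 to -0.43 in the standard and from -0.53 to -0.05 in the FLASH library. Cst7, an inhibitor of lysosomal proteases, was at 66.6 and 89.2 CPM against 11.5 and 10.2 CPM, and at 233 and 246 CPM in the homeostatic class. Itgax, the CD11c integrin chain, was at 78.4 and 64.4 CPM against 32.5 and 18.3 CPM. Mmp12, macrophage elastase, had 66 and 78 UMIs in members and 0 in the Mrc1 class of both libraries. Against a floor of 3 counts over that class it was at least 15.0-fold and 15.8-fold higher, but 71.2% and 67.9% of its UMIs came from 1 cell in each library. Arg1, arginase, and Lgals1, a galectin, were the 2 lower. Against the homeostatic class 8 of 22 genes were higher, beside 9.60% of all genes, and 3 lower, beside 8.34%. Among the 8 was Lgals3, the galectin of damaged lysosomes, at 1000.5 and 1007 CPM against 226 and 434 CPM. Ccl3, Ccl4 and Cst7 were the 3 lower.

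**Figure D3:**
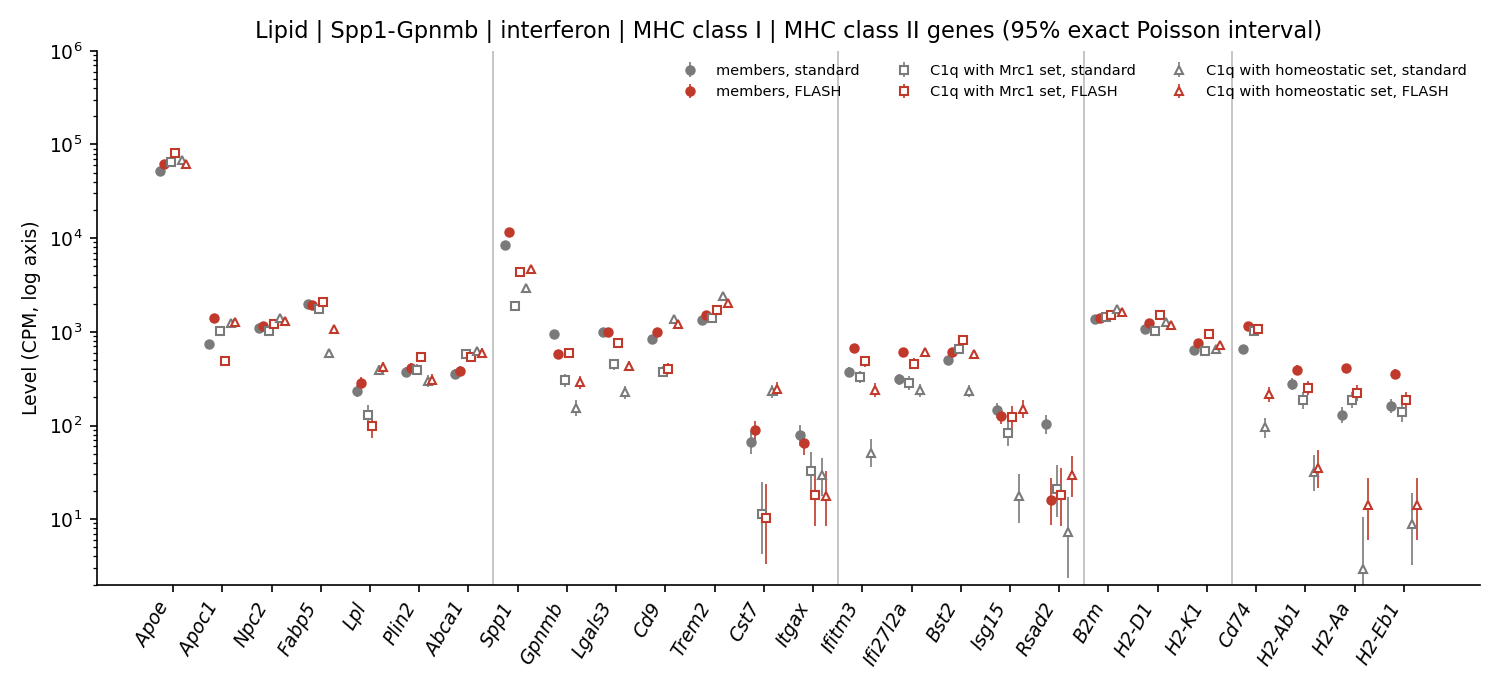
Level of single genes in CPM (log axis) with exact Poisson intervals in members (filled circles), the Mrc1 class (squares) and the homeostatic class (triangles), grey for standard and red for FLASH; genes at 0 are not drawn. Spp1 in members (8447 and 11531 CPM) lies above both classes, Apoe does not, and H2-Aa lies above the homeostatic class in both libraries and above the Mrc1 class (224 CPM) in the FLASH library at 406 CPM.

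Over all members, lysosomal genes summed to a level near the Mrc1 class and below the homeostatic class. The 19 genes summed to 22591 and 23741 CPM in members. The sum was 22023 and 25489 CPM in the Mrc1 class and 36763 and 32287 CPM in the homeostatic class. Without granule-rich members it was 30325 and 29291 CPM in members, above the Mrc1 class and below the homeostatic class. Those classes were not cut in this way. Ctsl, a lysosomal cysteine protease, was at 2644 and 2231 CPM in members and at 342 and 532 CPM in the Mrc1 class, a log2 ratio of 2.95 (2.73 to 3.18) and 2.07 (1.88 to 2.26). In the standard library 62.8% of the members' Ctsl UMIs were in 1 cell, the one with the most Spp1. Ctsl was found at 2000 UMIs in 56.7% and 61.2% of members, in 40.7% and 54.5% of the Mrc1 class and in 15.2% and 14.3% of granule lineage barcodes. The homeostatic class had it in more cells, 93.7% and 86.9%. Under the alternatives the log2 ratio of members over that class ran from -1.47 to 0.26 (standard) and from -0.59 to 0.13 (FLASH).

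Interferon-stimulated genes were carried by a part of the members. The 33 genes summed to 3431 CPM in standard and 3841 CPM in FLASH members, against 3009 and 4029 CPM in the Mrc1 class and 1542 and 3337 CPM in the homeostatic class. No UMI of any of them was found in 22 and 20 members. The 5 genes Ifit1, Ifit2, Ifit3, Isg15 and Rsad2 summed to at least 3 UMIs in 16 members of each library. Of these, 12 standard and 8 FLASH members also had at least 3 Gpnmb UMIs, beside 29 of 133 and 32 of 141 members in all. The 16 were deeper than the other members, with median depths of 8165 and 8256 UMIs against 3681 and 4494. Of 22 genes compared with the homeostatic class, 3 were at least 1.5 times higher in both libraries, beside 9.60% of all genes, with medians of 2.01 in the standard and 0.10 in the FLASH library. Ifitm3, a membrane protein that blocks virus entry, was one of them, at 375 and 670 CPM in members against 51.3 and 239 CPM. Isg15, a ubiquitin-like modifier, was at 145 and 128 CPM in members, and at 17.6 and 151 CPM in the homeostatic class, so the side on which members lay differed between libraries.

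MHC class I genes were at like levels in all 3 classes. B2m, the light chain, was at 1354 and 1408 CPM in members, 1440 and 1500 CPM in the Mrc1 class and 1741 and 1633 CPM in the homeostatic class. Of 12 class I genes and partners compared with the homeostatic class, 0 passed 1.5 in both libraries in either direction, and of 11 compared with the Mrc1 class also 0. Over all genes 9.60% were higher and 8.34% lower than in the homeostatic class, and 7.85% and 3.64% against the Mrc1 class. These are counts past a fold with no test behind them.

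MHC class II RNA lay almost wholly in a small set of members. H2-Aa (the alpha chain of I-A; chromosome 17, 34282744 to 34287823, - strand) had 99 UMIs in 4 standard members and 328 UMIs in 13 FLASH members. The sum of H2-Aa, H2-Ab1 and H2-Eb1 reached 3 UMIs in 4 standard (3.01%, interval 0.83 to 7.52) and 12 FLASH members (8.51%, 4.48 to 14.4). These few cells held 97.5% and 98.9% of the UMIs of the 3 genes. In the standard library the 4 highest members had 206, 123, 58 and 38 UMIs, and the next had 2. In the FLASH library the 5 highest had 212, 158, 153, 149 and 84 UMIs. Monocyte genes at 3 or more UMIs were found in 2 of the 4 and 5 of the 12, and 10 or more Spp1 UMIs in 1 and 4. The 4 and 12 cells were deeper, with median depths of 8646 and 8536.5 UMIs against 4599 and 4593 in the other members. Of 6 class II genes compared with the homeostatic class, 4 were at least 1.5 times higher in both libraries, beside 9.60% of all genes. Their medians were 2.93 and 2.93 beside 0.12 and 0.03 over all genes. Against the Mrc1 class 0 of 6 were past 1.5 in both libraries, beside 7.85% of all genes higher and 3.64% lower. The medians there were -0.19 in the standard and 0.67 in the FLASH library. Cd74, the invariant chain that guides class II molecules, was at 654 and 1150 CPM in members, 1018 and 1062 CPM in the Mrc1 class and 95.3 and 214 CPM in the homeostatic class.

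**Figure D4:**
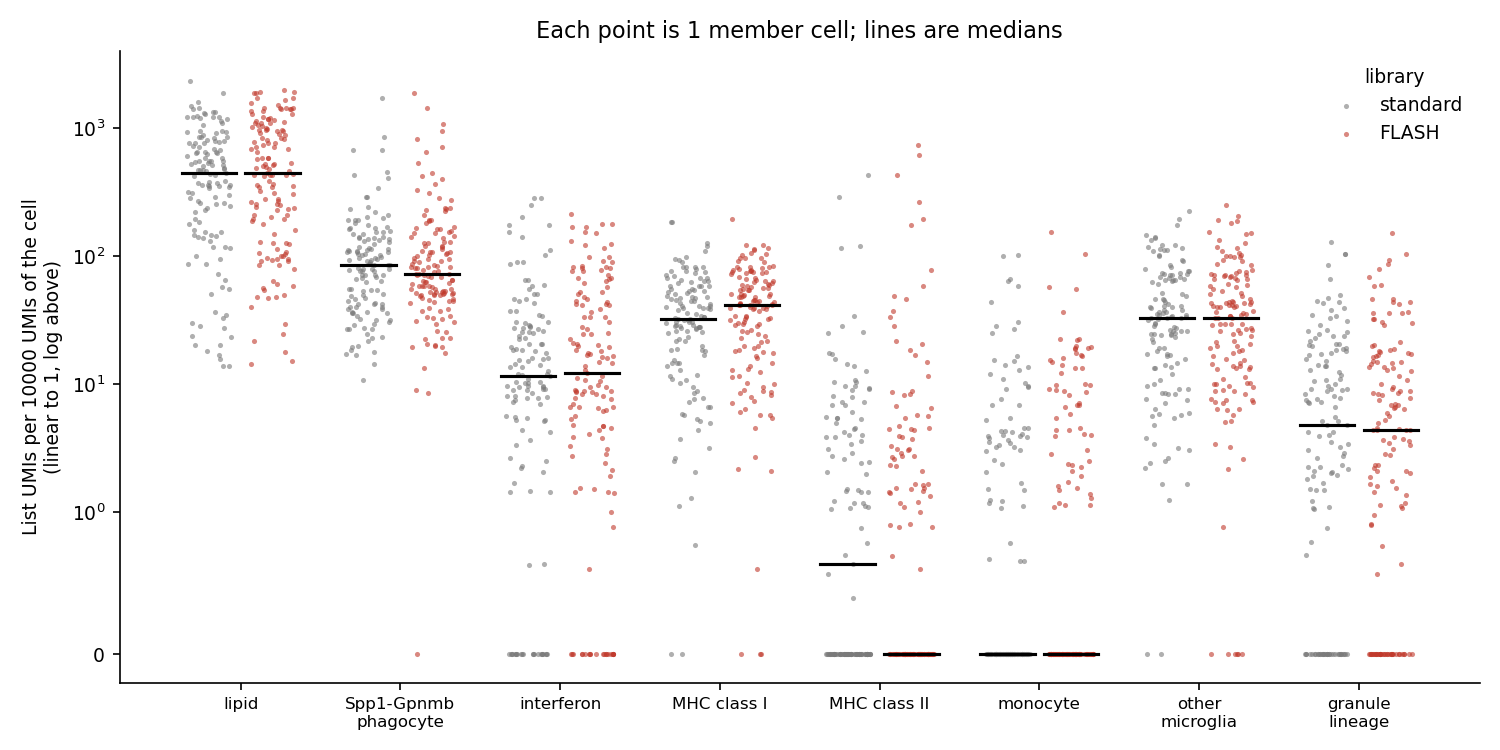
UMIs of each list per 10000 UMIs of the cell (linear to 1, log above) for every member, grey for the 133 standard and red for the 141 FLASH members, with the median as a line. Lipid and MHC class I values fill a continuous band, while MHC class II is at 0 in 64 standard and 73 FLASH members and reaches its high values in a few cells.

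Other genes that separated members from the 2 classes were taken by size of the smaller ratio of the 2 libraries. Over the homeostatic class the 8 largest differences were H2-Aa, H2-Eb1, H2-Ab1, Cd74, Mmp12, Ahnak, S100a6 and S100a4, and all 8 were also named without the granule-rich members. Without those members 146 of 4151 genes (3.52%) were at least 1.5 times higher in both libraries and 353 (8.50%) lower, against 495 and 430 of 5158 with them. S100a6, a calcium-binding protein of motile cells, had 155 and 127 UMIs in members against 3 and 12 in the homeostatic class. Ahnak, a large scaffold protein, was at 115 and 139 CPM against 8.79 and 10.6 CPM. Among the lowest were Slco2b1, Tanc2, Ptgs1, Sparc, P2ry13, Ecscr and Selplg. Slco2b1, an organic anion carrier of microglia, had 26 and 26 UMIs in members against 145 and 96. Ptgs1, cyclooxygenase 1, was at 49.6 and 47.1 CPM against 230 and 197 CPM.

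Over the Mrc1 class the highest were Mmp12, Cre, Gria2, Pde1c, Cst7, Phgdh, Rnd3 and Fez1. Of the members' UMIs of Gria2, an AMPA receptor subunit of neurons, 82.4% and 88.7% lay in granule-rich members. Without those members 2 of the 8 were still named, Mmp12 and Cst7, and the count of genes at least 1.5 times higher went from 380 of 4840 to 74 of 3760 (1.97%), and the count of lower genes from 176 to 137 (3.64%). The others then named were Ctsl, Cd72, Cd81, Sparc, Spp1 and Itgax. Cd81, a tetraspanin, was at 393 and 506 CPM in these granule-poor members against 93.7 and 61.1 CPM in the Mrc1 class. Lowest against the Mrc1 class were Ccl7, Yae1d1, Dab2, Dse, Stab1, Gpr65, Retnla and Hspa1a. Dab2, an endocytic adaptor, was at 75.8 and 100 CPM against 402 and 397 CPM. Stab1, a scavenger receptor, was at 104 and 123 CPM against 344 and 379 CPM. Retnla, a gene of alternative activation, had 0 UMIs in standard members and 103 in FLASH members, 70.9% of them in 1 cell.

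FLASH was then set against standard within members. Genes were compared where the 2 sums held at least 30 UMIs, which left 6071. Of these, 355 (5.85%) were at least 1.5 times higher in the FLASH members and 493 (8.12%) lower, with a median log2 ratio of -0.02. Together these were 14% of genes, and 5.98% had such a fold with a counting interval that left out 0. The ratio is on CPM with 0.5 counts added to each sum. By a fixed rule of size the highest were H2-Aa, Retreg2, Lig1, H2-Eb1, Mab21l2, Slamf9, Igf1r and Slc50a1. The lowest were Slfn5, Ccl7, Nol11, Zic4, Taf1d, Kmt2b, Pdcd4 and Rcan1. Without granule-rich members 3 of these 16 were named again, H2-Aa, H2-Eb1 and Slfn5. Zic4, a transcription factor of the granule lineage, had 88.5% and 88.9% of its member UMIs in granule-rich cells, and Mab21l2 89.5% and 83.7%.

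In the MHC class II list all 6 of its measured genes were above 0, 3 of them past 1.5. Over all 6071 genes 2876 were above 0, and 5.85% were past 1.5 higher. The median of the list was 0.66 beside -0.02 over all genes. H2-Aa was at 129 CPM in standard and 406 CPM in FLASH members, a log2 ratio of 1.65 (1.32 to 1.99). H2-Eb1 (the beta chain of I-E; chromosome 17, 34305867 to 34316674, + strand) was at 162 and 356 CPM, a ratio of 1.13 (0.83 to 1.45). Cd74 was at 654 and 1150 CPM with a ratio of 0.81 (0.65 to 0.97), and H2-Ab1 at 278 and 394 CPM with a ratio of 0.50 (0.25 to 0.76). Nearly all H2-Aa, H2-Ab1 and H2-Eb1 UMIs came from the 4 and 12 cells described above, while Cd74 was found in 28 and 39 members. The lowest ratios under the alternatives were 1.28 for H2-Aa, 0.99 for H2-Eb1 and 0.69 for Cd74. Without granule-rich members the H2-Aa ratio was 1.57 and that of H2-Eb1 1.05. Without the cell with the most UMIs of each gene the ratio was 1.83 for H2-Aa, 1.73 for H2-Eb1 and 1.41 for Cd74. The shares of members with at least 3 UMIs of the 3 core genes, 3.01% and 8.51%, have intervals that overlap. In the Mrc1 class H2-Aa was at 189 and 224 CPM. The whole class II list summed to 1405 and 2567 CPM in members. Its sum was 1794 and 1973 CPM in the Mrc1 class and 387 and 564 CPM in the homeostatic class. The monocyte class had the opposite order, with 15622 CPM in the standard and 7687 CPM in the FLASH library. Whether the classes differ in this was not tested.

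The promoters of H2-Aa and H2-Eb1, the class II genes with the largest ratios, are shown as the 170 bases before the start site, 5′ to 3′ on the gene's strand, from RefSeq on GRCm38.p6. The windows are chr17:34287824-34287993 (- strand) and chr17:34305697-34305866 (+ strand). Capitals mark CTGATTGG, the letters of the Y box, which lies in class II promoters and is bound by the factor NF-Y.
H2-Aa: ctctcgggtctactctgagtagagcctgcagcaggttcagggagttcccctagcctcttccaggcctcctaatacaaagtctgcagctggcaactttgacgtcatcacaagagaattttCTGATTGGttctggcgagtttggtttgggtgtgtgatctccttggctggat
H2-Eb1: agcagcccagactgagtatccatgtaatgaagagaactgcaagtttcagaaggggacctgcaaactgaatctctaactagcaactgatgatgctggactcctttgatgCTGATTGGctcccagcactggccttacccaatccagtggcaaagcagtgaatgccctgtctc
The match ends 43 bases before the start in H2-Aa and 54 bases before it in H2-Eb1. On either strand these letters occur in 3.35% of the 32851 promoter windows of the same length, so a match is a description and not a site shown to be used. One of 2 promoter entries of Spp1 holds them too, ending 41 bases before the start.

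Interferon genes had ratios on both sides of 0. Of 26 measured, 3 were at least 1.5 times higher in the FLASH members, beside 5.85% of all genes, and 6 lower, beside 8.12%, with a median of -0.05. Rsad2 (viperin, an antiviral enzyme) had 79 UMIs in 14 standard members and 13 UMIs in 9 FLASH members, or 103 and 16.1 CPM, a log2 ratio of -2.63 (-3.65 to -1.82). Ifit2, which binds foreign RNA, was at 101 and 29.7 CPM with a ratio of -1.74 (-2.48 to -1.08), and 46.8% of its standard UMIs were in 1 cell. Slfn5, a Schlafen family protein, was at 150 and 53.3 CPM with a ratio of -1.49 (-2.04 to -0.98). Without the top cell of each gene the ratios were -2.40, -1.24 and -1.40, and without granule-rich members -2.89, -1.89 and -1.81. When the limits were applied to cells thinned to 2000 UMIs, the ratios were -1.58 for Rsad2, -0.73 for Ifit2 and -0.51 for Slfn5, the last no longer past a fold of 1.5, and the Ifit3 ratio below turned to 0.25. Ifit3 and Stat2 were also past 1.5 on the lower side, at -0.91 (-1.53 to -0.32) and -1.17 (-2.38 to -0.12), as was Ifit1 at -0.81 (-1.73 to 0.03).

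On the other side, Ifi27l2a, a small interferon-inducible membrane protein, was at 311 and 614 CPM, a ratio of 0.98 (0.76 to 1.21), but of -0.15 over the members with none of the 8 excluded genes. Ifitm3 was at 375 and 670 CPM, a ratio of 0.84 (0.63 to 1.05). Ly6a had 12 and 27 UMIs. Isg15 and Irf7 had ratios of -0.18 and -0.03, with intervals that include 0. In the homeostatic class Rsad2 had 5 UMIs in the standard and 17 in the FLASH library (7.33 and 29.9 CPM), and Ifit2 had 5 and 43, the opposite order. Whether the 2 classes differ in this could not be tested with 1 library each.

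The promoters of 3 interferon genes with lower values in FLASH members are shown over the same 170 bases, from chr12:26456453-26456622 (- strand) for Rsad2, chr19:34583359-34583528 (+ strand) for Ifit3 and chr11:82951932-82952101 (+ strand) for Slfn5. Capitals mark GAAA, any 2 bases and again GAAA (a core of the interferon-stimulated response element), or the reverse complement of that run.
Rsad2: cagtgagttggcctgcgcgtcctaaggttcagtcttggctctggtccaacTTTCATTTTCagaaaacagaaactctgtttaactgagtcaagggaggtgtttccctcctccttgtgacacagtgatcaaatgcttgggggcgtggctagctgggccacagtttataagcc
Ifit3: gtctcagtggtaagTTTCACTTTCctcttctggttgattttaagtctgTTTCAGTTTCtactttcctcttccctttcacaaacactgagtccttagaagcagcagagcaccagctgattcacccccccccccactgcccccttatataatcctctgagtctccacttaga
Slfn5: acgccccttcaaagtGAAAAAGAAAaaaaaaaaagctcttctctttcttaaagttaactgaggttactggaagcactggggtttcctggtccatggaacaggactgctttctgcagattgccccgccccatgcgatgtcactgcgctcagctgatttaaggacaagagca
Rsad2 held 1 match, Ifit3 held 2 and Slfn5 held 1, the last within a run rich in A. These letters occur on either strand in 1.87% of the 32851 windows. Neither of the 2 promoter entries of Ifit2 held them, which says only that these letters are not in those windows. Stat2 and Ifit1, also past 1.5 on the lower side, were not searched, nor were the 3 genes past it on the higher side. Of the 2 promoter entries of Spp1, 1 held a match, ending 147 bases before the start.

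Of 19 lipid genes measured, 2 were at least 1.5 times higher in FLASH members, beside 5.85% of all genes, and 0 lower, beside 8.12%, with a median of 0.10. Apoc1, an apolipoprotein that travels with Apoe, was at 735 and 1395 CPM, a ratio of 0.92 (0.78 to 1.07), and was found in 66 of 133 and 79 of 141 members. With cells thinned to 2000 UMIs its ratio was 0.51, and with the limits applied after thinning it was 0.12, neither past a fold of 1.5. In the Mrc1 class Apoc1 went the other way, from 1025 CPM in the standard to 489 CPM in the FLASH library. Cd36, a fatty acid and lipoprotein receptor, had 13 and 38 UMIs. Apoe had a ratio of 0.23 (0.21 to 0.25), Plin2 of 0.14 (-0.09 to 0.37) and Fabp5 of -0.05 (-0.16 to 0.05).

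Single cells and the choice of members set much of the Spp1 and Gpnmb values. The Spp1 ratio was 0.45 (0.40 to 0.50), and 0.92 without the top cell of each library. It was 0.04 over the members with none of the 8 excluded genes. With the barcodes of highest doublet score removed it was -0.17, so its direction was not stable. Gpnmb had a ratio of -0.71 (-0.88 to -0.54), -0.29 without its top cells and -0.90 without the barcodes of highest doublet score. Of those top cells the standard one held 34.1% of the UMIs. The numbers of members past 10 Spp1 UMIs (33 and 36) or 3 Gpnmb UMIs (29 and 32) were close. Of the 22 genes of the list, 1 was past 1.5 higher, beside 5.85% of all genes, and 2 lower, beside 8.12%. Their median was 0.11. The higher was Fn1, fibronectin, at 0.69, and at -1.17 over the members with none of the 8 excluded genes. The lower were Gpnmb and, at -0.74, Axl, a receptor for dying cells. Of 18 lysosomal genes measured, 0 passed 1.5 in either direction, beside 14% of all genes.

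Of MHC class I genes, 10 of 12 were above 0, beside 2876 of 6071 over all genes, with a median of 0.18. Past 1.5 were 1 higher, beside 5.85% of all genes, and 2 lower, beside 8.12%. Immediate-early and heat shock genes, which also respond to enzymatic digestion, were lower in 12 of 13 measured, beside 3195 of 6071 over all genes. Their median was -0.39, and 1 was past 1.5 lower, beside 8.12% of all genes. The list's sum was also lower in the FLASH library in the homeostatic class (8367 and 7292 CPM) and in granule lineage barcodes (1532 and 1357 CPM). It was higher there in the Mrc1 class (5630 and 5983 CPM) and the monocyte class (7846 and 8311 CPM). Fos was at 874 and 607 CPM and Jun at 756 and 530 CPM. Chemokine values rested on few cells: Cxcl2, which attracts neutrophils, was at 65.3 and 216 CPM, a ratio of 1.71, but 37.4% of its FLASH UMIs were in 1 cell and the ratio was 0.35 after thinning and 0.015 with the limits applied after thinning. Ccl5 had 12 UMIs in 5 standard members and 109 in 3 FLASH members, 82.6% of them in 1 cell. Of 10 p53 target genes measured, 1 was past 1.5 higher, beside 5.85% of all genes, and 0 lower, beside 8.12%. Cdkn1a, the p53-induced cell cycle inhibitor, was at 390 and 374 CPM.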

How the data were processed

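Single-cell RNA was measured with 10x V3 chemistry in 2 libraries, 1 after standard and 1 after FLASH proton irradiation. The deposited matrices hold UMI counts. Per the file headers their software was Cell Ranger 6.1.2, and the genome was mm10 per the submitters' processing notes. They listed 12867 barcodes with 55532202 UMIs (standard) and 14269 barcodes with 63178900 UMIs (FLASH), of which 8461 and 10366 were kept. The libraries had 46 barcodes in common, and none was a member.

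UMIs were summed over members, 765618 and 807300 in all, and scaled to CPM. Ratios carry exact conditional binomial intervals and CPM carry exact Poisson intervals (scipy 1.17.1). Shares of cells with a UMI were taken after thinning cells to 2000 UMIs. No test was run, since each group is 1 library. Free RNA was not subtracted. Scrublet (scanpy 1.11.5) marked 0 barcodes by its own limit, so doublets were kept. Removing the highest scores, at a set rate of 0.8% per 1000 kept barcodes, was an alternative. It took out 16 and 21 members, of which 10 and 7 were granule-rich and 6 and 14 were not. The ratio, its interval and the call were checked on simulated counts.

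Genes were named by a rule. For FLASH against standard, it took the 8 highest and 8 lowest ratios among genes with at least 50 UMIs, 50 CPM in 1 library and at most 25% of UMIs in 1 cell. For classes, it took the 8 of largest smaller ratio with the same sign in both libraries. Mitochondrial, ribosomal, haemoglobin, immunoglobulin and sex-linked genes and the rule's genes were left out. The members and lists were chosen with earlier results of these data known.
The granule-rich limit, the monocyte class and the alternatives built on them were chosen after seeing the data. Some genes that the rule or the lists hold are not reported here.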

Additional observations from a re-analysis of the deposited data

Results flagged for a closer look

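Barcodes outside the analysed set carried the same C1q, Mrc1-set and homeostatic values as members. In the standard library 82 barcodes met the limits on these genes but failed the quality limits, 70 of them with fewer than 500 genes and 21 with over 10% mitochondrial UMIs. In the FLASH library there were 93, of which 73 had too few genes and 29 too many mitochondrial UMIs. Their median depth was 759 and 780 UMIs, their pan-macrophage genes summed to 12844 and 13808 CPM, and Apoe was at 29493 and 37865 CPM. They are reported because no comparison above uses them, and no unirradiated library was used to set them against.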

How the results depend on the processing

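No paired analysis was possible because each group has 1 library, and for the same reason no library could be left out. Of 142 single-gene results past a fold of 1.5, 136 kept their direction under every alternative that left the gene at least 30 UMIs. These results were picked from the same data, many for their large ratios, and a gene can count in several comparisons. The count thus gives no rate of stability over all genes. The fold of 1.5 is no test, depth limits genes with few UMIs, and the causes of the changes below were not tested.

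For FLASH against standard, values are median log2 ratios of lists unless named otherwise. With at least 10 C1q UMIs the lysosome list was at 0.012, MHC class II at 1.89 and the digestion response at -0.49. With both excluded sums at 0, 229 genes were lower, and the medians were -0.48 (lipid), -0.22 (Spp1-Gpnmb), -0.20 (lysosome), -0.66 (interferon), -0.16 (MHC class I), 4.63 (MHC class II), -0.17 (digestion), 0.53 (other microglia) and -1.26 (monocyte). There Fn1 turned to -1.17 and Ifi27l2a to -0.15. With at most 5% mitochondrial UMIs the lipid list was at -0.032. Without the barcodes of highest doublet score Spp1-Gpnmb was at -0.045. With the limits applied after thinning to 2000 UMIs, lipid was at -0.045, lysosome at -0.086, MHC class II at 1.20, digestion at -0.24, other microglia at -0.11 and monocyte at -0.036, while C3 turned to -0.71, Ifit3 to 0.25 and Sparc to -0.10. With cells weighted equally 730 genes were higher and 804 lower, MHC class II was at 0.995, digestion at -0.49, other microglia at 0.019 and monocyte at -0.084. Without the top cell of each gene Spp1-Gpnmb was at 0.20, lysosome at 0.18 and MHC class II at 1.30, and C3 turned to -0.076. With 5 counts added 235 genes were higher. With each cell thinned 140 were higher and 131 lower, and lipid was at -0.054, lysosome at 0.016, MHC class II at 0.99, digestion at -0.50 and monocyte at -0.042. With no filter except 1 UMI 2870 genes were higher and 3016 lower. With at least 100 UMIs 48 were higher and 54 lower, and monocyte was at 0.34. Without granule-rich members 321 genes were lower, lysosome was at -0.0068 and interferon at -0.29.

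Counts against the other classes moved too. Over the Mrc1 class, 248 genes were higher with 5 counts added, 59 higher and 43 lower with cells thinned, 71 higher and 112 lower without granule-rich cells of any class, and 283 lower with cells weighted equally. With classes set after thinning 207 were higher, and Yae1d1 turned to 0.95 in the standard library. Over the homeostatic class, 99 were higher and 145 lower with cells thinned, 149 higher without granule-rich cells and 316 higher with classes set after thinning.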

Other observations

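Cell cycle genes were found in a part of the members. At least 5 UMIs of the 15 genes were found in 20 standard and 24 FLASH members, and 13 and 14 of these were granule-rich. The list summed to 963 and 1028 CPM in all members and to 379 and 499 CPM without the granule-rich ones, beside 2958 and 3084 CPM in granule lineage barcodes and 300 and 427 CPM in the homeostatic class. Mki67, a marker of cycling cells, was at 133 and 156 CPM, and at 60.1 and 65.3 CPM without granule-rich members.

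Complement genes other than C1q were at low levels. C3ar1, the receptor for C3a, was at 227 and 228 CPM in members. C5ar1, the receptor for C5a, had 12 UMIs in 8 standard and 33 UMIs in 21 FLASH members. C4b had 10 and 31 UMIs. Vsig4, a complement receptor of resident macrophages, had 0 UMIs in both libraries. Receptors for dying cells were measured too: Mertk was at 84.9 and 84.2 CPM, Axl at 135 and 80.5 CPM and Lrp1 at 273 and 235 CPM. Nos2, which makes nitric oxide, and Il12b had 0 UMIs in members of both libraries, and Il1b was at 148 and 136 CPM.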
